A study of Mus musculus with 2 samples.

Results

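General capillary endothelial cells line the finest blood vessels of the lung, and 1270 cells that met a rule for this type were taken from 29837 cells that passed the quality filters in 2 single-cell RNA sequencing libraries of mouse lung. The rule chose cells by their counts of unique molecular identifiers (UMIs, each standing for 1 captured transcript). A cell needed at least 3 of the pan-endothelial genes Cldn5, Ptprb, Cyyr1, Ldb2, Tspan7 and Ramp2. It also needed at least 1 of Gpihbp1, Plvap and Kit, and could hold at most 1 of the aerocyte capillary genes Ednrb, Tbx2, Fibin, Apln and Car4. Any UMI of the immune genes Cd3e, Cd79a, Csf1r or Mertk left the cell out.

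The libraries compare lung cells with and without GFI1, a DNA-binding repressor best known from blood cell development. One library was labelled GFI1 KO and 1 GFI1 WT, both from adult mice with no treatment named in the labels and "ctrl" in both library names, and the study describes the knockout as germline and all its mice as kept on the C57BL6/J background. Perfused lungs were digested with collagenase and DNase, red cells were lysed, and live cells were sorted, with no gate on cell type named in the labels, and loaded for 3′ gene expression together with 18 antibody tags. Each sample title names 1 mouse, and with 1 library per label the genotype, the mouse and the preparation cannot be told apart. No test between the labels was therefore possible, and every interval below is a 95% interval that covers counting error only. The library labelled GFI1 KO gave 60 of the capillary cells, with a median of 3441 UMIs and 1878.5 genes per cell, and the library labelled GFI1 WT gave 1210, with a median of 4573.5 UMIs and 2293.5 genes. The description of the cell type therefore rests mainly on the WT-labelled library. The libraries shared 74 cell barcodes, and 7 of the WT-labelled and 0 of the KO-labelled capillary cells carried a shared one.

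Lung capillaries hold a pair of endothelial cell types. Aerocytes are large, thin cells that cover much of the gas exchange surface, whereas general capillary cells regulate vascular tone, handle lipoproteins and act as progenitors for both types. General capillary cells are known for Gpihbp1, which carries lipoprotein lipase to the vessel lumen, for Plvap, which forms the diaphragms of caveolae and fenestrae, and for the receptor tyrosine kinase Kit. They also carry MHC molecules and respond to interferon, and so take part in antigen presentation in the alveolar wall.

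The label was checked against genes that the rule did not use, beside those that it did. Levels are given as CPM, the summed UMIs of a gene per 1000000 UMIs of all genes other than ribosomal, mitochondrial and predicted Gm genes. Cldn5, a tight junction protein that was among the selecting genes, stood at 3552 CPM (3292 to 3827) in the 60 KO-labelled cells and at 3034 CPM (2989 to 3081) in the 1210 WT-labelled cells. Sema3c, a secreted semaphorin that took no part in the selection, stood at 4262 CPM (3977 to 4563) and 3567 CPM (3518 to 3618), which made it one of the most abundant transcripts in both libraries. Of the other selecting genes, Gpihbp1 reached 1045 and 1106 CPM, Plvap 1045 and 1023 CPM, Ptprb, a phosphatase that acts on the angiopoietin receptor, 2044 and 2835 CPM, and Kit 355 and 446 CPM. Pairs of values joined by "and" give the KO label first and the WT label second, unless the sentence assigns them otherwise. All 13 genes of a general capillary marker list, 5 of them selecting genes, were detected in both libraries, and none differed by as much as 2-fold between them. Summed over that list, the level was 18259.8 CPM with the KO label and 19460.4 CPM with the WT label. The WT-labelled aerocyte class, the most similar cells, reached 15302 CPM, and of the 8 list genes compared with it 0 were 2-fold higher in general capillary cells (median ratio 1.30).

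In lymphoid cells of the same libraries, chosen by Cd3e or Cd79a and by holding at most 1 of the pan-endothelial genes, the same 13 genes summed to 142 and 106 CPM. Their Sema3c level was 0.636 and 5.15 CPM and their Gpihbp1 level 0.318 and 0.997 CPM. Since the lymphoid cells were chosen to hold few pan-endothelial genes and Gpihbp1 was a selecting gene of the members, Sema3c alone of these compares a gene that neither choice used. Its level in lymphoid cells, which should lack it, lay far below that of the capillary cells. The median depth of the lymphoid cells was 4576.5 and 5120 UMIs. After thinning every cell to 1500 UMIs, Sema3c was detected in 92.7% of 55 KO-labelled and 88.6% of 1136 WT-labelled capillary cells, against 1 of 1564 and 30 of 5292 lymphoid cells. Shallower cells were left out of that count, 5 and 74 capillary and 14 and 19 lymphoid cells. Without thinning Sema3c was seen in 95% and 93.8% of the capillary cells.

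**Figure D1:**
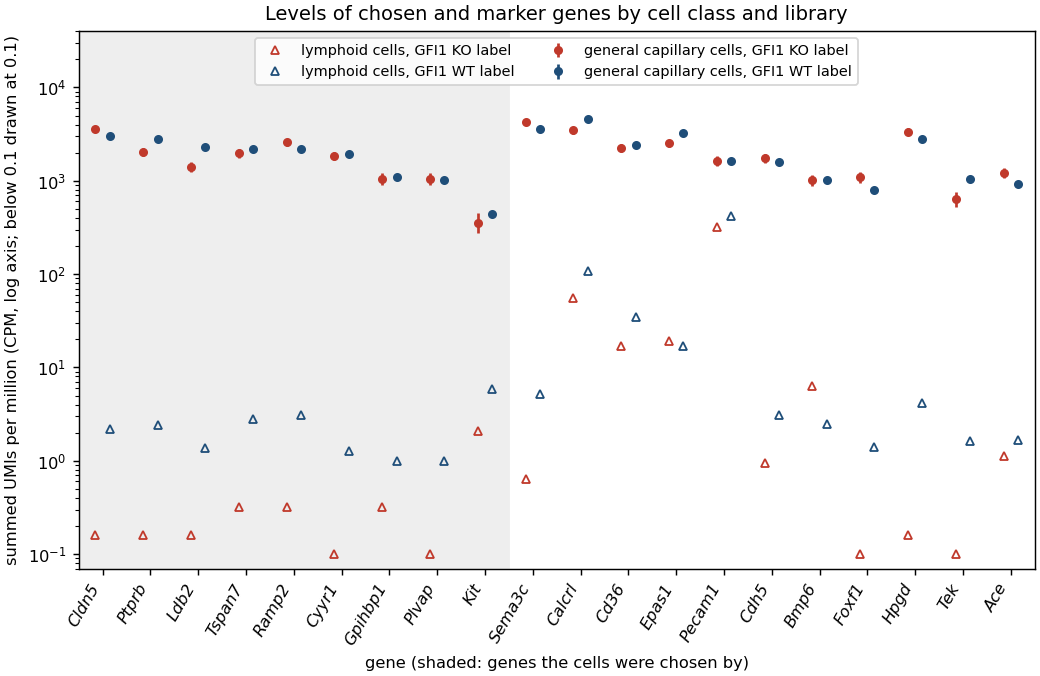
Levels in CPM (log axis) of genes used to choose the cells (shaded) and of other endothelial genes, with exact 95% Poisson intervals for general capillary cells (filled circles) and values for lymphoid cells (open triangles) in each library. Sema3c stands at 4262 CPM with the KO label and 3567 CPM with the WT label, against 0.636 and 5.15 CPM in lymphoid cells.

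The antibody tags gave a readout on protein that the rule did not use. The CD117 tag, which detects the KIT protein, had a median of 117.5 UMIs in KO-labelled and 139 UMIs in WT-labelled capillary cells, against 2 and 4 UMIs in lymphoid cells. The aerocyte class had higher medians, 488 UMIs in 3 cells and 226 UMIs in 174 cells, so the tag did not mark general capillary cells over aerocytes. That class also had more UMIs over all tags, with medians of 1470 and 935 against 709.5 and 512.5. CD117 made up 29.1% and 22.7% of its tag UMIs, against 14.3% and 24.5% in general capillary cells. Capillary cells in which no Kit transcript was seen still had a median of 87 UMIs (n = 23) and 118 UMIs (n = 290) of the tag. The pan-leukocyte tag CD45 showed the opposite order, with medians of 9 and 7 UMIs in capillary cells and 748 and 573 UMIs in lymphoid cells. A part of the tag signal was not specific, since the isotype control RTK2758 stood at 16.5 and 12 UMIs in capillary and at 1 and 2 UMIs in lymphoid cells, and the other control, RTK4530, at 1 and 1 against 0 and 0 UMIs. The tags for CD196 (69.5 and 56 UMIs), CD335 (39.5 and 36 UMIs) and CD127 (32 and 25 UMIs), which belong to lymphocytes, also stood above the isotype controls in capillary cells, as did CD11c (22 and 21 UMIs) and FceRIa (21.5 and 15 UMIs). PE_Streptavidin2 stood at 100 and 118 UMIs. At or below the RTK2758 control in both libraries were CD45R_B220 (13.5 and 12 UMIs), CD8a (8 and 8), NK.1.1 (7 and 6), CD11b (7 and 3), KLRG1 (4 and 4), CD4 (3.5 and 3) and Ly.6G (3 and 2 UMIs). CD117 was thus the tag with the highest median in the capillary cells of either library.

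**Figure D2:**
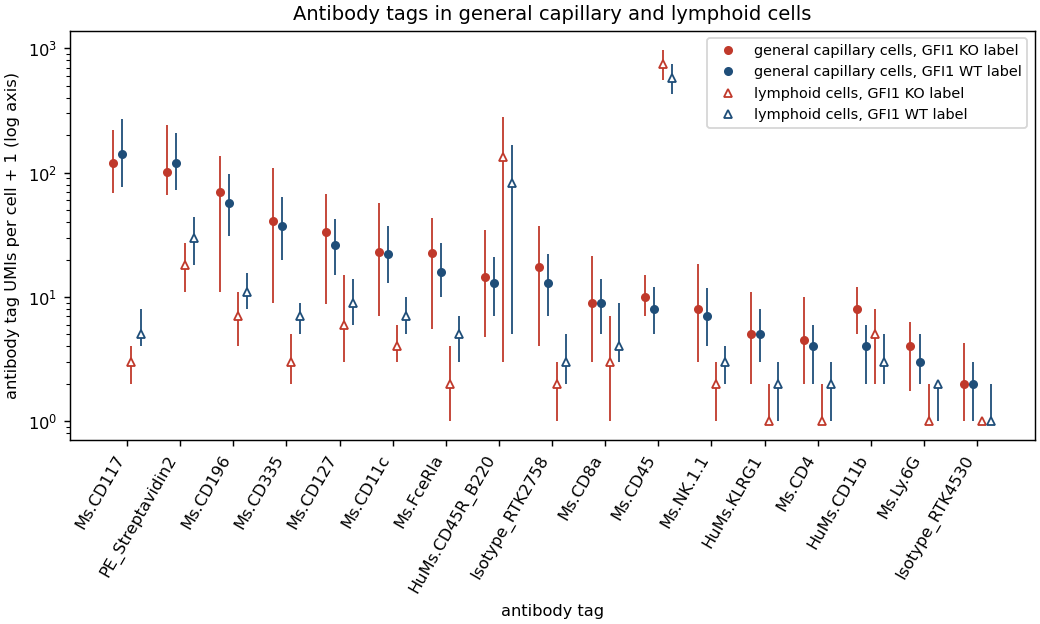
Median UMIs per cell plus 1 of the antibody tags reported here (log axis) with the lower and upper quartile as a line, for general capillary cells (filled circles) and lymphoid cells (open triangles) of each library. CD117 has medians of 117.5 and 139 UMIs in capillary cells, and CD45 medians of 748 and 573 UMIs in lymphoid cells.

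Most members lay well inside the pan-endothelial criterion. All 6 pan-endothelial genes were seen in 45 KO-labelled members (75%) and in 1047 WT-labelled members (86.5%), while 3 and 29 members sat at the minimum of 3 genes with median depths of 629 and 1128 UMIs. Outside it, 0 KO-labelled and 23 WT-labelled cells had 2 of these genes and met the rest of the rule. Of Gpihbp1, Plvap and Kit, all 3 were seen in 30 and 756 members and just 1 in 10 and 120 members, and 9 and 62 cells with none of them stayed outside. Exactly 1 aerocyte gene, the most that the rule allowed, was seen in 27 and 500 members, so that 33 and 710 would remain with none allowed, and 3 and 94 cells with 2 such genes stayed outside. The aerocyte gene most often seen was Car4, a carbonic anhydrase, at 263 CPM in KO-labelled and 129 CPM in WT-labelled members.

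The immune criterion removed many endothelial cells. Among 2990 WT-labelled cells with at least 3 pan-endothelial genes, 1376 (46.0%) had a UMI of Mertk, a phagocytic receptor tyrosine kinase used here as a macrophage gene, and in 1098 of them it was the only immune gene seen. The corresponding numbers with the KO label were 49 of 137 cells (35.8%) and 39 cells. Cells that met the rest of the rule but held a Mertk UMI numbered 30 with the KO label and 784 with the WT label. Their CD45 tag had medians of 11 and 7 UMIs and their CD117 tag medians of 160.5 and 126 UMIs, near the members' own medians. With the WT label they held more leukocyte signal, since the CD45 tag made up 15.5% of their tag UMIs against 7.02% in members and Lyz2 stood at 1155 against 295 CPM. With the KO label the CD45 share was also larger, at 5.75% against 3.39%, whereas Lyz2 was lower, at 698 against 1230.4 CPM. They were used below as a second set of cells, from the same libraries, that the rule had not used.

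General capillary cells made up 0.572% (0.437 to 0.735, exact Clopper-Pearson interval) of the 10495 cells of the KO-labelled library and 6.26% (5.92 to 6.61) of the 19342 cells of the WT-labelled library. When Mertk UMIs were allowed, which was decided with the data in view, the shares became 0.858% and 10.3%. The aerocyte class, cells with at least 2 of the 5 aerocyte genes, numbered 3 and 174, and endothelial cells with none of Gpihbp1, Plvap and Kit 9 and 62. Every endothelial class was thus scarcer in the KO-labelled library. A share depends on the yield of each cell type during digestion and sorting, which was not measured.

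Among the transcripts that led the WT-labelled cells after the nuclear RNA Malat1 were Calcrl and Ramp2, the receptor for adrenomedullin and its partner, at 4565 and 2183 CPM. Their levels with the KO label were 3459 and 2584 CPM. Epas1, the hypoxia-inducible factor of endothelium, stood at 2522 CPM with the KO label and 3252 CPM with the WT label, the adhesion receptor Adgrl3 at 2039 and 3164 CPM, Hpgd, which breaks down prostaglandins, at 3367 and 2811 CPM, and the fatty acid transporter Cd36 at 2245 and 2400.4 CPM. The MHC class I genes H2-D1 and H2-K1 and their light chain B2m were also among the 20 most abundant genes of the cells. So were Nckap5 (2543 and 2666 CPM), Itm2b (3454 and 2946 CPM) and the stem cell antigen Ly6a (3048 and 2381 CPM).

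Against the 16352 WT-labelled cells with fewer than 3 pan-endothelial genes, genes were ranked by the lower end of the interval of their ratio. The first was Ccdc85a at 861 against 0.871 CPM, followed by the non-coding 4930554G24Rik at 307 against 0.345 CPM and the scaffold gene Shank3 at 700 against 0.923 CPM. Bmp6, a bone morphogenetic protein, stood at 1018 CPM in capillary cells and 1.94 CPM in the other cells. The incretin receptor Glp1r stood at 481 against 0.673 CPM, the angiopoietin co-receptor Tie1 at 382 against 0.621 CPM, the apelin receptor Aplnr at 127 against 0.207 CPM, and the transcription factor Sox17 at 233 against 0.379 CPM. The prostaglandin transporter Slco2a1 stood at 1094 against 2.16 CPM and the surface protein Clec14a at 693 against 1.22 CPM. The other genes of the 15 that ranked highest were Arhgef15 (324 CPM), Sema3g (327 CPM), Nova2 (250.3 CPM), Tmem252 (207 CPM) and Dipk2b (51.9 CPM). The rule chose endothelial cells and these ratios follow in part from that choice, so they describe the cells and test nothing. The WT-labelled aerocyte class held all 15 genes within 2-fold. Ratios of general capillary cells over that class ran from 0.861 (Dipk2b) to 1.67 (Tmem252).

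The balance of the contrast with the aerocyte class changed with thinning and with how that class was drawn. Of 4376 genes compared in the WT-labelled library, without the genes of the rule, 0.343% were at least 2-fold higher in general capillary cells and 2.49% at least 2-fold lower, or 15 and 109 genes. After thinning every cell to 1500 UMIs before the choice of cells the counts were 268 and 234. The aerocyte class then held 160 cells at that lower depth, which makes counting error larger, and its part in the rise was not tested. Emp2, a membrane protein of thin alveolar cells, stood at 129 CPM in general capillary cells and 933 CPM in the aerocyte class. The G protein regulator Rgs6 stood at 12.1 against 175 CPM, the matrix protein Egflam at 17.2 against 158 CPM, and the phosphodiesterase Pde8b at 13.8 against 112 CPM. In the other direction, Vwf, the von Willebrand factor, stood at 319 against 128 CPM (ratio 2.50, 2.11 to 2.98), the chemokine scavenger Ackr3 at 193 against 98.5 CPM (ratio 1.96, 1.61 to 2.40), the protease Prss23 at 137 against 52.3 CPM, and elastin (Eln) at 182 against 80.7 CPM. Vwf and Prss23 are also venous markers, and both were higher in the sub-cluster of 45 members described below.

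Some of the most extreme genes of this contrast belonged to other cell types. The haemoglobin genes Hba-a1, Hba-a2 and Hbb-bs reached 775, 586 and 1685 CPM in the aerocyte class, and the chemokine Ccl17 102 CPM. The surfactant genes Sftpc and Sftpa1 stood at 1119.7 and 175 CPM in general capillary cells, the matrix gene Dcn at 124 CPM and the lymphatic chemokine Ccl21a at 127 CPM. In general capillary cells 95.9% of the Sftpc UMIs came from 5 cells and 83.8% of the Dcn UMIs from 5 cells. Without the leading cell of each gene, the log2 ratio of general capillary cells over the aerocyte class went from -7.28 to 0.47 for Hbb-bs and from -3.71 to 1.27 for Ccl17. The part of such cells in the rest of the contrast was not tested.

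The aerocyte class was itself mixed, with Gpihbp1 in 83.3% and Plvap in 74.1% of its 174 cells. A stricter aerocyte class, chosen after seeing the data with at least 3 of the 5 genes and with Mertk UMIs allowed in both types, held 295 cells against 1994 general capillary cells. The contrast then covered 135 genes at least 2-fold higher and 139 at least 2-fold lower in general capillary cells. Emp2 stood at 119 against 2693 CPM, Rgs6 at 10.5 against 782 CPM and Pde8b at 11.3 against 299.6 CPM. Kdr, the main VEGF receptor, stood at 273 against 1570.5 CPM (ratio 0.174, 0.166 to 0.183). On the general capillary side the angiopoietin receptor Tek stood at 981 against 428 CPM (ratio 2.29, 2.15 to 2.45), Bmp6 at 977 against 396 CPM and Sema3c at 3408 against 1642 CPM. Kdr, Tek, Bmp6 and Sema3c were named here after their values were seen. Mertk itself reached 178 CPM in general capillary cells and 313 CPM in the stricter aerocyte class.

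Between the libraries, most genes of the general capillary cells stood at similar levels. Of 4283 genes with a mean of at least 50 CPM over the 2 libraries, 2.24% were at least 2-fold higher and 4.04% at least 2-fold lower with the GFI1 KO label, and the median ratio was 1.02. Without the cell that led each gene in each library, a setting chosen after seeing the data, 39 genes were higher and 278 lower. Taking the leading cell from 60 cells removes a larger part of the UMIs than taking it from 1210. That setting therefore pushes the ratios down, and its counts do not show an excess of lower genes. The interval of the ratio lay off 1 for 96 of the 96 higher and for 172 of the 173 lower genes. The filter on the mean and the 2-fold rule together nearly fixed that outcome, so it adds no support to the calls. Gfi1 itself gave 0 UMIs in the 60 KO-labelled and 3 UMIs in the 1210 WT-labelled cells, and 0 UMIs, with 3 UMIs taken as the limit, allows up to 15.4 CPM in the former, so its level could not check the labels. Its paralog Gfi1b gave 0 UMIs in both. A gene could pass the filter on the mean through 1 label alone, so the counts over gene lists below describe the genes that passed and support no statement about a list, and each is to be read against the 2.24% and 4.04% of all genes.

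**Figure D3:**
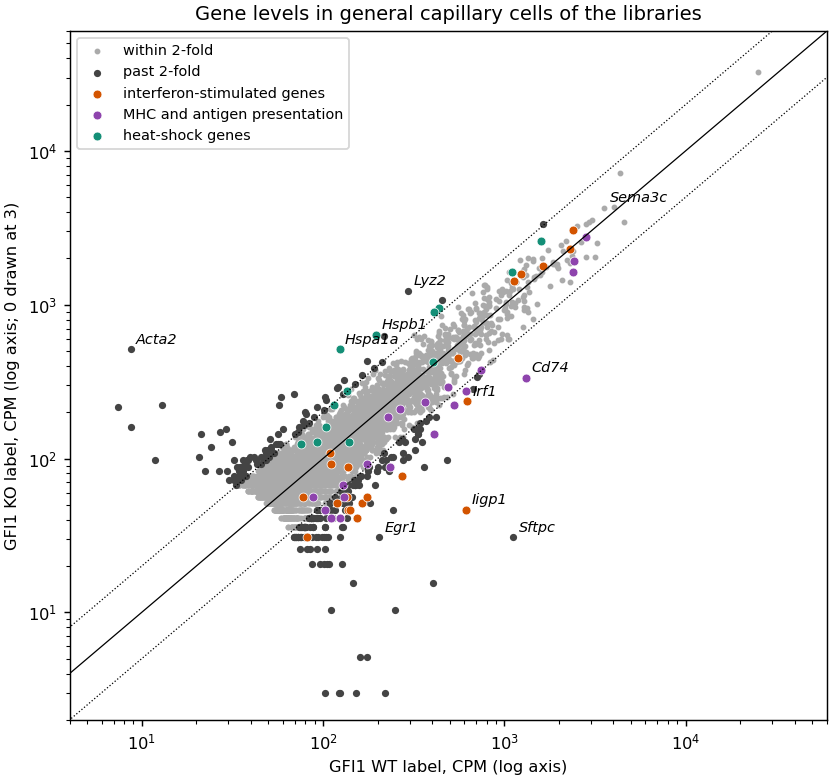
Level of each of 4283 genes in general capillary cells of the WT-labelled (x axis) and KO-labelled (y axis) library in CPM, both on log axes, with the line of equal levels and dotted lines at 2-fold. Of the interferon and MHC lists 11 of 21 and 9 of 20 genes lie below the lower dotted line, against 4.04% of all genes. Iigp1 leads them, at 46.3 CPM with the KO label and 618 CPM with the WT label. Of the heat-shock list 5 of 13 genes, with Hspa1a (515 and 123 CPM) among them, lie above the upper dotted line, against 2.24% of all genes.

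The genes with the highest ratios with the KO label came largely from single cells. Of the 100 UMIs of Acta2, the actin of smooth muscle, 99 were in 1 of the 60 cells, and so were 43 of 43 UMIs of Tagln and 41 of 42 UMIs of Nebl. One cell held 180 of 239 UMIs of the lysozyme gene Lyz2, 20 of 28 of Wfdc17, 21 of 29 of Lgals3, 37 of 49 of Serpinb6b, 20 of 23 of Hp, 18 of 19 of Wfdc21 and 27 of 31 of Cdh13, taking the leading cell for each gene. Only Hspa1a, with 100 UMIs over 33 cells, and Depp1, a target of FOXO factors, with 30 UMIs over 15 cells, were spread among the 12 genes. Without the leading cell in each library Depp1 still stood at 119.9 against 28.1 CPM (ratio 4.27, 2.63 to 6.64). Acta2 stood at 5.32 against 3.81 CPM.

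Most of the 12 genes with the lowest ratios were also genes of other cell types. With the WT label, Sftpc (1119.7 CPM against 30.9 with the KO label), Sftpa1 (175 against 5.15 CPM), Dcn (124 against 0 CPM), Gsn (405 against 15.4 CPM) and Mgp (251 against 10.3 CPM) drew 71.2% to 97.1% of their UMIs from 5 of the 1210 cells each. The lymphocyte genes Ccl5 (159.8 against 5.15 CPM) and Gzma (102 against 0 CPM) and the myeloid genes Il1r2 (153 against 0 CPM) and G0s2 (123 against 0 CPM) were seen in 52 to 99 WT-labelled cells. Kcnq5, a potassium channel, stood at 219.6 against 0 CPM with UMIs in 62 WT-labelled cells, and Plac9 at 146 against 15.4 CPM. Of the 12 genes Iigp1 alone was seen in more than 200 WT-labelled cells. In lymphoid cells, which make no surfactant, Sftpc stood at 2.23 CPM with the KO label and 3.49 CPM with the WT label. The sums over a list of 14 epithelial genes were 386 and 2019.5 CPM in capillary cells, and 242 and 2024 CPM in lymphoid cells. The list's most abundant genes were Hopx (288 CPM) with the KO label and Sftpc with the WT label in capillary cells, whereas in lymphoid cells Hopx (197 CPM) led with the KO label and the club cell secretoglobin Scgb1a1 (1817 CPM) with the WT label. In capillary cells Scgb1a1 stood at 46.3 and 244 CPM.

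Many interferon-stimulated genes stood lower in the KO-labelled cells. Of 37 genes on the list 21 were compared, and 11 were at least 2-fold lower and 0 at least 2-fold higher (4.04% and 2.24% of all genes), with a median ratio of 0.431. Iigp1, an interferon-inducible GTPase that acts against intracellular pathogens, stood at 46.3 CPM (21.2 to 88.0) with the KO label and at 618 CPM (597 to 639) with the WT label, a ratio of 0.0750 (0.0343 to 0.142). It was seen in 4 of 60 and 666 of 1210 cells, and after thinning in 5.45% and 35.7% of the deeper cells, against 0.895% and 0.831% of lymphoid cells. The WT-labelled cells thus carried Iigp1 far above the level of lymphoid cells, and the KO-labelled cells stood nearer to it. In the aerocyte class the order was the other one, with 14 UMIs or 916 CPM in the 3 KO-labelled cells and 357 CPM with the WT label.

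The transcription factor Irf1 stood at 237 CPM with the KO label and 624 CPM with the WT label (ratio 0.380, 0.277 to 0.507). The guanylate-binding proteins, GTPases of cell-autonomous defence, were also lower, with Gbp7 at 77.2 and 272 CPM and Gbp2 at 41.2 and 153 CPM. Gbp4 stood at 46.3 and 137 CPM. These genes have close paralogs, whose shared reads may be split or lost in counting. Among the other lower genes, ratios were 0.313 for Oasl2, 0.327 for Rtp4, 0.381 for Igtp, 0.419 for Stat2 and 0.431 for the ubiquitin-like modifier Isg15. Of the lower genes, Iigp1, Gbp2, Gbp4, Rtp4 and Igtp were below 50 CPM with the KO label and passed the filter through the WT label. The 4 most abundant members, Ly6a, Ifitm3, Ly6e and Ly6c1, did not stand lower by as much as 2-fold, and the sum over all 37 genes was 11887 and 12762 CPM. Ly6a stood at 3048 and 2381 CPM (ratio 1.28, 1.18 to 1.39), Ifitm3, which restricts virus entry, at 2301 and 2312 CPM (ratio 0.995, 0.904 to 1.09) and Ly6c1 at 1591 and 1232 CPM (ratio 1.29, 1.15 to 1.45). The median ratio of the 21 genes was 0.485 in the cells with a Mertk UMI, where Iigp1 had a ratio of 0.0575 and Irf1 of 0.336. With the filter applied in those cells the list's median ratio was 0.607. In general capillary cells the median ratio was 0.819 over the list genes with a mean of at least 100 CPM. It was 0.729 when every cell was thinned to 1500 UMIs before the choice of cells and 0.657 when each cell was weighted alike. In lymphoid cells the median ratio of the same 21 genes was 1.03. No filter on level was applied there, and Iigp1 stood at 14.0 and 10.4 CPM in those cells.

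The promoters of such genes often hold an interferon-stimulated response element, a site bound by IRF proteins among others. Promoter sequences of the 250 bases before the annotated start were taken from RefSeq on build GRCm38.p6, which is not the build of the deposited counts (GRCm39, from the submitters' processing notes). They were searched on both strands for GAAANNGAAA, a core of that element. Of the 11 lower genes, 7 were found in the table and 5 of these held the motif. Of the 10 compared genes that were not 2-fold lower, 8 were found and 3 held it. Of all 27025 genes with a promoter there, 3.46% held it, as did 2.98% of their 32851 promoters. The promoters of 3 lower genes and of Ifitm2, which stood at 1421 CPM with the KO label and 1128 CPM with the WT label, are shown 5′ to 3′ on the strand of the gene, with the motif in capitals, so that both kinds of gene can be seen to carry it.
Gbp2, chr3:142620413-142620662, plus strand: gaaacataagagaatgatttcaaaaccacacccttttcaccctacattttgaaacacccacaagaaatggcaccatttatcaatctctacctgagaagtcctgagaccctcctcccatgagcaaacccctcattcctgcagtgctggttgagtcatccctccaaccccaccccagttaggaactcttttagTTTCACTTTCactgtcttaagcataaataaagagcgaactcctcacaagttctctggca
Gbp7, chr3:142530086-142530335, plus strand: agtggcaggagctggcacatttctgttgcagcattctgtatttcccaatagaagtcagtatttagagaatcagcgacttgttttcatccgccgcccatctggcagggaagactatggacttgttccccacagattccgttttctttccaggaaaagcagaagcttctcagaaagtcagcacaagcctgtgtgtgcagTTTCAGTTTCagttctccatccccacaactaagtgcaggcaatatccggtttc
Isg15, chr4:156200819-156201068, minus strand: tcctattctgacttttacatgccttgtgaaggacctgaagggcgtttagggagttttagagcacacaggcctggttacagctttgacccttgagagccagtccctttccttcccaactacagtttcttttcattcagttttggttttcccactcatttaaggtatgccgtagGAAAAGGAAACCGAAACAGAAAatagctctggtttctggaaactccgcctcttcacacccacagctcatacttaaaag
Ifitm2, chr7:140955962-140956211, minus strand: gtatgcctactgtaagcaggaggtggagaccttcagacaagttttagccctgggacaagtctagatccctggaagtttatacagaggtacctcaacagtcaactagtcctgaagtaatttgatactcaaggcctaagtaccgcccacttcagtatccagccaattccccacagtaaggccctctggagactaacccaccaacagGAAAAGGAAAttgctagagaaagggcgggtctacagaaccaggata

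Some genes of MHC and antigen presentation, class II genes among them, also stood lower with the KO label. Of 23 genes 20 were compared, with 9 at least 2-fold lower and 0 at least 2-fold higher (4.04% and 2.24% of all genes) and a median ratio of 0.512. Cd74, the invariant chain of class II, stood at 335 CPM (258 to 426) with the KO label and 1324 CPM (1294 to 1354) with the WT label, a ratio of 0.253 (0.195 to 0.323). It was seen in 19 of 60 and 905 of 1210 cells, and after thinning in 25.5% and 56.9% of the deeper cells. Lymphoid cells express Cd74 and give no background for these shares. The class II chains H2-Ab1 at 273 and 614 CPM (ratio 0.445, 0.332 to 0.583), H2-Aa at 221 and 527 CPM (ratio 0.420, 0.303 to 0.567) and H2-Eb1 at 144 and 409 CPM (ratio 0.353, 0.234 to 0.511) were lower as well. The peptide transporter Tap1 had a ratio of 0.434 (0.216 to 0.781), and Nlrc5, the transactivator of class I genes, of 0.371 (0.160 to 0.736). Nlrc5, H2-T22 and H2-DMb1 (41.2, 41.2 and 46.3 CPM with the KO label) passed the filter through the WT label.

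The abundant class I genes differed less. H2-D1 stood at 2754 and 2815 CPM (ratio 0.978, 0.896 to 1.07), H2-K1 at 1925 and 2418 CPM (ratio 0.796, 0.716 to 0.882) and B2m at 1627 and 2392 CPM (ratio 0.680, 0.606 to 0.761). H2-Q6 (ratio 0.373), H2-Q7 (ratio 0.504) and H2-T22 (ratio 0.331) belong to families of near-identical genes, so their separate values are uncertain. In the cells with a Mertk UMI the median ratio of the 20 genes was 0.655, or 0.704 with the filter applied in those cells, and that of Cd74 was 0.302. In lymphoid cells, which hold far more class II RNA, Cd74 stood at 7006 and 6266 CPM and the list's median ratio was 1.12. A list of 14 leukocyte markers summed to 1843 CPM with the KO label and 916 CPM with the WT label, and the gap came from Lyz2 (1230.4 and 295 CPM), which stood at 313 and 217 CPM without the leading cell of each library. Of 6 markers compared, Lyz2 was 2-fold higher and Ptprc (30.9 and 125 CPM) 2-fold lower with the KO label. In the cells with a Mertk UMI the Lyz2 ratio was 0.604. With cells holding a Ptprc UMI left out, the median ratio of the MHC list was 0.517 and that of the interferon list 0.459.

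Several heat-shock genes stood higher with the KO label. Of 14 genes 13 were compared, with 5 at least 2-fold higher and 0 at least 2-fold lower (2.24% and 4.04% of all genes) and a median ratio of 1.63. Hspa1a, an inducible HSP70 chaperone, stood at 515 CPM (419 to 626) with the KO label and 123 CPM (114 to 133) with the WT label, and was seen in 33 of 60 and 294 of 1210 cells. Hspb1, a small heat-shock protein of the actin skeleton, stood at 638 and 196 CPM (ratio 3.26, 2.68 to 3.93). Hsp90aa1 stood at 901 and 409 CPM and Dnaja1 at 947 and 435 CPM, whereas Hspa5, a chaperone of the endoplasmic reticulum, differed little (422 and 404 CPM). Hspa1a and its neighbour Hspa1b (273 and 135 CPM) share much of their sequence. The median ratio was 1.29 in the cells with a Mertk UMI and 1.33 in lymphoid cells, and Hspa1a had ratios of 2.79 and 2.09 there. The heat-shock list thus had a median ratio above 1 in all 3 sets of cells, and its difference from the interferon and MHC lists was not tested.

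**Figure D4:**
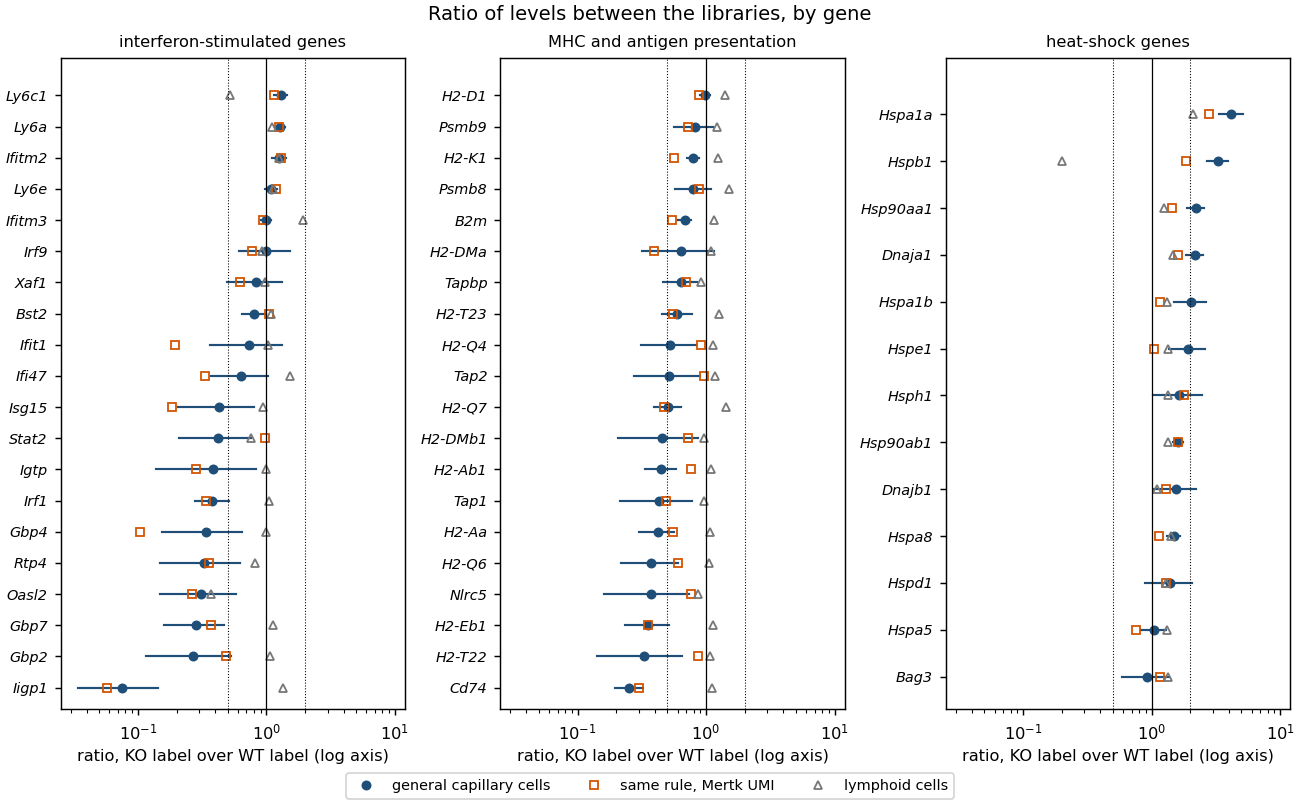
Ratio of the level with the KO label to that with the WT label (log axis) for the compared genes of 3 lists that are reported here, in general capillary cells with exact 95% intervals (filled circles), in cells that met the rule but held a Mertk UMI (open squares) and in lymphoid cells (open triangles), with dotted lines at 2-fold. Iigp1 lies at 0.0750 in general capillary cells and 0.0575 in cells with a Mertk UMI, while the median of the interferon genes in lymphoid cells is 1.03.

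Genes of vessel growth and of the vessel wall lay mostly within 2-fold, as did most genes of the comparison (2.24% of all genes were higher and 4.04% lower). Of 11 compared VEGF, angiopoietin and apelin receptors and ligands, 1 was at least 2-fold lower and 0 higher, with a median ratio of 0.721. The lower one was the lymphatic growth factor Vegfc at 97.8 CPM with the KO label and 275 CPM with the WT label (ratio 0.356, 0.214 to 0.558). The VEGF receptor Flt1 stood at 896 and 1356 CPM (ratio 0.660, 0.565 to 0.767), Tek at 633 and 1033 CPM (ratio 0.613, 0.509 to 0.733) and Kdr at 263 and 282 CPM (ratio 0.932, 0.691 to 1.23). Tek and Flt1 thus stood lower, within 2-fold, while the interval of the Kdr ratio held 1.

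Among 23 compared transcription factors of endothelium, 2 were at least 2-fold higher and 0 lower. These were Bcl6b at 165 and 78.4 CPM and Hhex at 92.7 and 45.6 CPM. The shear-responsive factors Klf4 at 1344 and 781 CPM (ratio 1.72, 1.51 to 1.95) and Klf2 at 2023 and 1358 CPM (ratio 1.49, 1.34 to 1.65) also stood higher, within 2-fold. Foxf1, which lung capillaries depend on, stood at 1097 and 805 CPM. Genes of the junctions and the glycocalyx gave 0 of 14 past 2-fold, with Cdh5, the vascular cadherin, at 1745 and 1594 CPM, Pecam1 at 1632 and 1625 CPM and Cd34 at 283 and 142 CPM (ratio 1.99, 1.49 to 2.62). Of 10 genes of caveolae, Cavin3 alone passed 2-fold (221 and 57.4 CPM), and 25 of its 43 KO-labelled UMIs came from 1 cell. Cav1, the main caveolar protein, stood at 1663 and 1262 CPM.

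In lipid handling, 1 of 5 genes passed 2-fold, the lipoprotein receptor Scarb1 at 82.4 and 229.9 CPM (ratio 0.358, 0.204 to 0.584), while Cd36 and lipoprotein lipase (Lpl, 288 and 242 CPM) did not. In the Notch pathway 1 of 11 genes was higher, the ligand Jag2 (118 and 51.8 CPM), and 0 were lower, and Notch1 stood at 206 and 298 CPM. In the BMP and TGF-beta pathway 1 of 17 genes was lower, Smad5 (30.9 and 74.6 CPM), and 0 were higher. The receptors Bmpr2 (1874 and 2306 CPM), Acvrl1 (1230.4 and 1028 CPM) and Eng (1205 and 1371 CPM) and the ligand Bmp6 (1009 and 1018 CPM) lay within 2-fold, as did the inhibitory Smads Smad6 (ratio 0.593, 0.460 to 0.753) and Smad7 (ratio 0.543, 0.388 to 0.739). In the Wnt and R-spondin list 2 of 10 genes were lower, the co-receptor Lrp5 (56.6 and 145 CPM) and the factor Tcf7l2 (46.3 and 92.7 CPM). Smad5 and Tcf7l2 were below 50 CPM with the KO label and passed the filter through the WT label. The receptor Fzd4 stood at 371 and 336 CPM.

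Of 17 vasoactive genes, 2 were lower and 0 higher. These were the guanylate cyclase subunit Gucy1a1 with 4 UMIs or 20.6 CPM against 105 CPM, and the cyclooxygenase Ptgs1 at 41.2 and 93.2 CPM, both below 50 CPM with the KO label. The natriuretic peptide clearance receptor Npr3 came close, at 427 and 829 CPM (ratio 0.515, 0.410 to 0.640). Ace, the angiotensin-converting enzyme of lung capillaries, stood at 1220.1 and 933 CPM. In coagulation Vwf was lower (154 and 319 CPM, with 18 of 30 KO-labelled UMIs in 1 cell) and Serpinb1a higher (97.8 and 38.2 CPM) among 8 genes, and thrombomodulin (Thbd) stood at 973 and 1141 CPM. Among 9 genes of leukocyte trafficking Ackr3 alone passed 2-fold (66.9 and 193 CPM). The adhesion molecule Icam1 stood at 149 and 163 CPM.

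Of 19 secreted factors and guidance cues, 3 were higher and 1 lower (2.24% and 4.04% of all genes). Fgf1 stood at 149 and 72.8 CPM, Pdgfb at 422 and 211 CPM and Csf1 at 108 and 53.9 CPM, whereas the semaphorin Sema6a was lower at 339.8 and 704 CPM (ratio 0.482, 0.372 to 0.615). Of 17 basement membrane and matrix genes 1 was higher and 3 were lower. The matricellular Sparcl1 was higher, at 628 and 216 CPM (ratio 2.91, 2.39 to 3.50), over 28 of 60 and 401 of 1210 cells. The laminin receptor Itga6 was lower at 283 and 675 CPM (ratio 0.419, 0.315 to 0.547), as were Timp2 (129 and 262 CPM) and Mgp. The collagen IV chain Col4a1 stood at 1308 and 806 CPM and the protease Adamts9 at 839 and 446 CPM, both higher within 2-fold.

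Of 12 inflammatory genes 3 were lower and 1, Csf1, was higher. The lower ones were Socs3, a feedback inhibitor of cytokine signalling, at 129 and 350.4 CPM (ratio 0.367, 0.237 to 0.544), Nfkbiz at 82.4 and 199.7 CPM and the chemokine Cxcl2 at 20.6 and 128 CPM. Immediate-early genes, which respond to tissue dissociation among other signals, were split. Of 17 compared, Egr1 (30.9 and 205 CPM, ratio 0.151, 0.0553 to 0.330), Fos (87.5 and 219 CPM, ratio 0.399, 0.232 to 0.642) and Socs3 were lower and 0 were 2-fold higher, while Jun stood at 1622 and 1055 CPM (ratio 1.54, 1.37 to 1.72). The median ratio of the list was 0.803. In glycolysis 1 of 9 genes was higher, Gapdh (386 and 192 CPM), and 0 were lower. The hypoxia (7 compared), cell cycle (5 compared) and GFI1 partner (4 compared) lists had 0 genes past 2-fold, with Cdkn1a, a cell cycle inhibitor, at 885 and 577 CPM and Kdm1a, the demethylase recruited by GFI1, at 77.2 and 87.1 CPM.

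Clustered on their own, the 1270 cells split into 8 sub-clusters, which describe how the members vary and are not compared in size between the labels, since genes that differ between the labels lead some of them. Sub-cluster 0 held the most KO-labelled members (26 of 60) beside 244 WT-labelled ones, and sub-cluster 1 the most WT-labelled members (304 of 1210) beside 8 KO-labelled ones. Genes that lead a sub-cluster were part of the clustering and are given as a description. Sub-cluster 0 (270 cells) was led by Atp13a3, Cdk19, Cxcl12, Epha4 and Sema5a. Its Cxcl12 level was 1214 CPM against 342 CPM in the other members, and 3 of 12 arterial markers, Gja5, Bmx and Cxcl12, were at least 2-fold higher in it, as were 3 of 14 epithelial markers, Epcam, Cdh1 and Krt18. Sub-cluster 1 (312 cells) was led by stress and cytokine response genes, with Atf3 at 489 against 105 CPM, Socs3 at 687 against 214 CPM and Iigp1 at 1085 against 416 CPM. Sub-cluster 2 (276 cells) was led by Adgrl3 (5561 against 2678 CPM), Meis1, Smad6 and Zbtb16, and sub-cluster 6 (153 cells) by Vegfc (709 against 199.8 CPM), Tspan8, Lbp and Ptgs1. In sub-cluster 6, 3 of 8 erythroid and platelet markers, Hba-a1, Pf4 and Ppbp, were also at least 2-fold higher. Iigp1, Socs3 and Egr1, which led sub-cluster 1, and Vegfc and Ptgs1 were all among the genes lower with the KO label, and the part of the unlike spread over sub-clusters in those ratios was not tested. These 4 sub-clusters held 49 KO-labelled and 962 WT-labelled members and kept summed levels of the general capillary list between 19297 and 23163 CPM.

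The other 4 sub-clusters carried many markers of another cell type. Sub-cluster 3 (72 cells) had 11 of 14 leukocyte and 7 of 10 neutrophil markers at least 2-fold higher, among them S100a9 at 7185 against 27.9 CPM. Sub-cluster 4 (45 cells) had 10 of 12 venous and 9 of 10 lymphatic markers higher, with Ccl21a at 2875 against 0.183 CPM and Slc6a2 at 1648 against 9.70 CPM, so the members included cells with markers of veins and lymphatic vessels. The lymphatic gene Ccl21a was seen in 15.6% of its cells and the venous gene Slc6a2 in 66.7%. Sub-cluster 5 (116 cells, median 1667.5 UMIs) had 9 of 14 epithelial markers higher, with Sftpc at 18172 against 47.7 CPM. Sftpc was seen in 23.3% of its cells, and its summed level of the general capillary list was 18142 CPM. Sub-cluster 7 (26 cells) had 14 of 14 fibroblast and mural markers higher, with Dcn at 3095 against 9.43 CPM. Scrublet, a doublet caller, marked 2 KO-labelled and 44 WT-labelled members, which were kept. With sub-clusters 3, 4, 5 and 7 left out, a choice made after seeing the data, 49 KO-labelled and 962 WT-labelled cells remained, and the median ratio was 0.498 for the MHC list, 0.464 for the interferon list and 1.55 for the heat-shock list. Iigp1 had a ratio of 0.0740, Cd74 of 0.272 and Hspa1a of 4.97 in these cells, close to the values over all members.

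**Figure D5:**
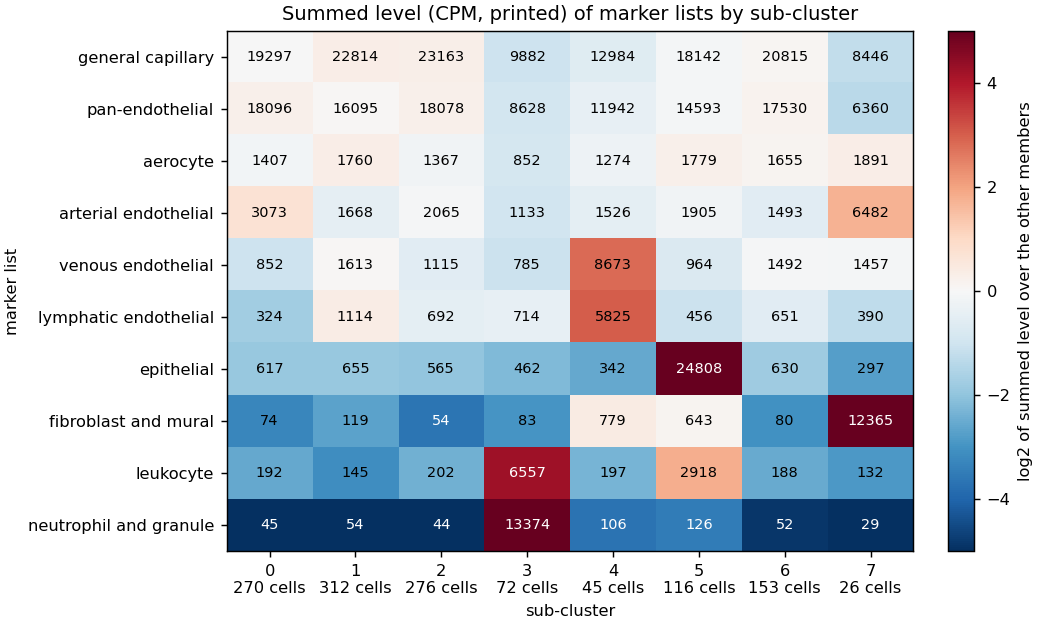
Summed level in CPM of 10 marker lists (rows) in the 8 sub-clusters of general capillary cells (columns), printed in each cell, with colour for the log2 of the sum over that of the other members. Neutrophil genes sum to 13374 CPM in sub-cluster 3, epithelial genes to 24808 CPM in sub-cluster 5 and fibroblast genes to 12365 CPM in sub-cluster 7.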

How the data were processed

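For each library the authors deposited a sparse table of unnormalized UMI counts, with genes and antibody tags as features and called cells as columns. The submitters' processing notes name Cell Ranger 9.0.1 and GRCm39. No removal of doublets or free RNA by the authors is given in the sources used here. From 10700 and 19515 called cells (KO and WT label), those with at least 500 UMIs, at least 200 genes and at most 20% mitochondrial UMIs were kept. Counts were summed over the cells of a class and divided by the sum over genes other than 9548 ribosomal, mitochondrial and Gm genes. Genes with a mean of at least 50 CPM were compared. Past 2-fold was the size rule, since 1 library per label allows no test. Levels carry exact Poisson intervals, ratios exact conditional binomial intervals and shares Clopper-Pearson intervals, and UMIs of 1 cell are not independent samples of a condition. The interval code was tested on simulated data. Doublets were marked with Scrublet (346 and 1145 cells) and kept. Sub-clusters came from scanpy 1.11.5 (1000 variable genes, 20 components, 15 neighbours, Leiden resolution 0.5). The members, gene lists and tests were chosen with earlier results of these data known. Named were the genes of the rule, the given markers, Gfi1 and Gfi1b, for each list its most abundant members and those with the highest and lowest ratio, the 12 highest and 12 lowest genes between labels, the 15 at each end against the aerocyte class, the 15 highest against other cells, the 20 most abundant, leading genes of sub-clusters and the tags, except that 1 gene and 1 tag are not reported here. Other genes of the lists were named after their values were seen. Symbols that belong to 2 identifiers were left out.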

Additional observations from a re-analysis of the deposited data

How the results depend on the processing

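The main limit is 1 library per label with 60 cells and 194252 UMIs under the KO label, where 0 UMIs, with 3 UMIs taken as the limit, allows up to 15.4 CPM. No replicate could be left out, and no paired analysis was possible because each label has 1 library. Over 19 alternatives the median log2 ratio kept its sign for the MHC list (-1.10 to -0.51), the interferon list (-1.31 to -0.29) and the heat-shock list (0.37 to 0.82), the lowest heat-shock value being that of cells with a Mertk UMI. Resolutions of 0.3 and 0.8 gave 6 and 11 sub-clusters. The causes of the moves below were not tested unless the setting itself changes the cells or genes compared.

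Shares of cells, KO label then WT label, were 0.314% and 3.67% with no aerocyte gene allowed and 0.858% and 10.3% with Mertk UMIs allowed. The WT-labelled share was 5.64% with at least 2 of Gpihbp1, Plvap and Kit, 5.55% with no Ptprc UMI, 8.96% with every cell thinned to 1500 UMIs (114 and 421 shallower cells left out), 5.26% with no Sftpc UMI and 4.97% without the mixed sub-clusters. Genes at least 2-fold higher and lower under the KO label numbered 222 and 268 with no aerocyte gene allowed, 320 and 468 at a mean CPM of at least 20, 39 and 66 at a mean CPM of at least 100, 43 and 113 with Mertk UMIs allowed and 39 and 278 without the leading cell of each gene. Leaving out the leading cell takes a larger part from the smaller KO-labelled set and so pushes the ratios down. After thinning 174 were higher. Genes at least 2-fold higher in general capillary cells than in the aerocyte class numbered 24 with no aerocyte gene allowed, 268 after thinning, 40 and 5 at a mean CPM of at least 20 and 100, 32 with Mertk UMIs allowed, 70 with at least 3 aerocyte genes and 135 with the last pair of changes together. Genes at least 2-fold lower numbered 234 after thinning and 239 and 45 at a mean CPM of at least 20 and 100.

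Some single genes changed sides, given as log2 ratios. Between the labels Wfdc21 stood at -0.066, -0.91, -0.65, -1.94 and -0.86 and Hp at -1.34, -0.91, -0.89, -2.05 and -0.47 with no aerocyte gene allowed, with at least 2 of Gpihbp1, Plvap and Kit, without Scrublet doublets, in cells with a Mertk UMI and without the leading cell. After thinning Lgals3 stood at -0.73, Serpinb6b at -0.52 and Hp at -0.11. In cells with a Mertk UMI Wfdc17 stood at -1.92, Lyz2 at -0.73 and Lgals3 at -0.65. Sftpa1 stood at 0.43 with no Sftpc UMI and at 0.12 without the mixed sub-clusters. Between general capillary cells and the aerocyte class Hbb-bs stood at 0.71, 1.03, 0.58 and 0.47 with at least 4 pan-endothelial genes, with no Ptprc UMI, without Scrublet doublets and without the leading cell. Ccl17 stood at 2.08, 0.18 and 1.27 with at least 4 pan-endothelial genes, with no Ptprc UMI and without the leading cell, at 0.87 with at least 3 aerocyte genes and at 1.54 when Mertk UMIs were allowed as well. Gsn stood at -0.32 with Mertk UMIs allowed and at -0.20 with at least 3 aerocyte genes in addition. After thinning Cxcl2 stood at -0.058, Hba-a2 and Hba-a1 at 0.18, Dtna at 0.29 and Adcy2 at 0.18. The settings on Mertk, Sftpc, 3 aerocyte genes, leading cells and mixed sub-clusters were chosen after seeing the data.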

Other observations

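Several counts bear on the quality of the selected cells. The median share of mitochondrial UMIs was 2.35% under the KO label and 2.24% under the WT label. Scrublet marked 3.33% and 3.64% of the members, against 3.30% and 5.92% of all cells. A Ptprc UMI was seen in 4 KO-labelled members, with a median CD45 tag of 12.5 UMIs, and in 137 WT-labelled members, with a median of 266 UMIs. Members without a Ptprc UMI had medians of 9 and 7 UMIs of that tag. The CD45 protein tag thus marked many of the WT-labelled members that held a Ptprc transcript, although the rule kept Cd3e, Cd79a, Csf1r and Mertk at 0.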
